A study of Mus musculus with 18 samples.

Results

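The genes described here are the chemokine and chemokine receptor genes of the mouse, read in peak lists of methylated DNA from heart muscle after myocardial infarction (MI). Members were the autosomal protein-coding genes of the RefSeq table of GRCm38.p6 whose symbol is Ccl, Cxcl, Ccr, Cxcr or Ackr followed directly by a digit, which gave 57 of 20661 genes. Of these, 56 of 20556 had a usable position. Ccl21c is listed on an unplaced scaffold and was not analysed, and Cxcr3 (on the X chromosome) and Cxcl11 (listed as a transcribed pseudogene) fall outside the rule. The members were 36 ligands, 16 conventional receptors and 4 atypical receptors.

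The samples were myocardial tissue from 12-week-old male C57BL/6JR mice, 3 mice in each of 6 groups and 1 library for each mouse. In 5 groups the left anterior descending coronary artery was tied under sodium pentobarbital and tissue was taken 10 min or 1 h later, or after 6 h, after 24 h or after 72 h. The sham group had the same surgery with the suture passed but not tied. The labels give the cell type as cardiomyocytes but describe whole tissue, without a step that isolates cells, and do not say whether the infarct, its border or remote muscle was taken. In such tissue a change in methylation within cells and a change in the mix of cells cannot be told apart.

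Chemokines are small secreted proteins that draw leukocytes along a gradient by way of G protein-coupled receptors on the leukocyte. In the infarcted heart, ELR-containing CXC ligands call in neutrophils through Cxcr2, Ccl2 calls in monocytes through Ccr2, and interferon-induced Cxcl9 and Cxcl10 attract T cells. Atypical receptors bind chemokines without the usual G protein signal and remove or present them. Methylated cytosine in mammals lies mostly in CpG dinucleotides, and methylated DNA immunoprecipitation sequencing (MeDIP-seq) pulls fragments that carry it down with an antibody. A peak marks a place where such fragments pile up. It needs CpGs to be present as well as methylated, and it gives no percentage of methylated molecules.

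The promoters of these genes hold few CpGs. Promoter windows from RefSeq, running from 250 bases before to 50 bases after a gene's start, were matched for 42 of the 56 members (49 windows). The median window held 4 CpGs, against 14 in all 20084 windows of autosomal protein-coding genes, and 59.2% of the members' windows held 5 or fewer, against 31.4%. The median ratio of observed to expected CpGs was 0.233 among the members and 0.586 among all windows. The windows below are shown because they carry the contrasts described later, with every CpG in capitals and the bases 5′ to 3′ on the gene's strand. Ccl22 (chr8:94745434-94745733, plus strand) and Ackr4 (chr9:104126594-104126893, minus strand) had the members' most frequent promoter peaks. Cxcl10 (chr5:92348840-92349139, minus strand) had a peak just inside the gene at 72 h only. Ccr2 (chr9:124101933-124102232, plus strand) stands for the low end, with 1 CpG and no peak in any library.
Ccl22: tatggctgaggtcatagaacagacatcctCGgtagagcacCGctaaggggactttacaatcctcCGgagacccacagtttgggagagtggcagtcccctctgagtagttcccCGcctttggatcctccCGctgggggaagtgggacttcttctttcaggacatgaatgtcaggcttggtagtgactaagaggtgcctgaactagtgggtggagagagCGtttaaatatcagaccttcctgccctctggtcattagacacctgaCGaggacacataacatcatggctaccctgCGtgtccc
Ackr4: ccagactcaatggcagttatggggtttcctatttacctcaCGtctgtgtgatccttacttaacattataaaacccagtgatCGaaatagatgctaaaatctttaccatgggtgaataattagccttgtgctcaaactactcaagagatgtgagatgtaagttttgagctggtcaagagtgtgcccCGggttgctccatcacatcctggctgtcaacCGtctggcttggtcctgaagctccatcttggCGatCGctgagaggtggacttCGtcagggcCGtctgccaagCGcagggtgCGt
Cxcl10: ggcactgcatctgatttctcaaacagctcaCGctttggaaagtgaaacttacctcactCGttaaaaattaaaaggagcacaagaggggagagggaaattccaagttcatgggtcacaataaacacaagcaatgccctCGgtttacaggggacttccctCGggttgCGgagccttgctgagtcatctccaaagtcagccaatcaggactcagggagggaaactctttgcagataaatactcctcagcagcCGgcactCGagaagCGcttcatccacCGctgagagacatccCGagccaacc
Ccr2: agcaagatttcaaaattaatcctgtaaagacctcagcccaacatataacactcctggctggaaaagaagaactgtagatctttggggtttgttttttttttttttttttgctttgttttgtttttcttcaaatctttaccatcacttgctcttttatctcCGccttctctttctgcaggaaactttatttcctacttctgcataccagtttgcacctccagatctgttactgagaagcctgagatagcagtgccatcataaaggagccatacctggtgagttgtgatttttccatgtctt
The windows of Ccl22, Ackr4 and Cxcl10 held 8, 10 and 10 CpGs. In the Ackr4 window the CpGs crowd toward the end nearest the gene body, and in the Ccl22 window they are spread along its length.

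A peak of any library touched 5 of the members' 49 promoter windows (10.2%), against 6.04% of all windows, and touched 2 of them in 9 or more libraries (4.08% against 1.27%). These 2 were Ccl22, a ligand of Ccr4 made by dendritic cells and macrophages, and Ackr4, a scavenger of Ccl19, Ccl21 and Ccl25. The Ccl22 window was under a peak in 13 of 18 libraries, 3 of 3 in sham and between 1 and 3 of 3 at each time after the tie. The Ackr4 window was under a peak in 9 libraries, 0 of 3 in sham, 3 of 3 at 10 min, 0 of 3 at 1 h, and 2 of 3 at each later time.

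Sequence motifs of inflammatory control were also counted in these windows, on both strands. The NF-kappaB consensus was found in 12 of the 49 windows (24.5%), against 9.42% of all windows. Its carriers were Ackr2, Ccl1, Ccl9, Ccl20, Ccl27a, Ccr1, Ccr3, Ccr6, Cxcl1, Cxcl2, Cxcl3 and Cxcl10. The core of the interferon-stimulated response element, GAAANNGAAA, was found in the windows of Ccl19, Cxcl10 and Cxcl14 (6.12%, against 3.38% of all windows). A match describes these letters only and was not tied to binding of a factor.

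**Figure D1:**
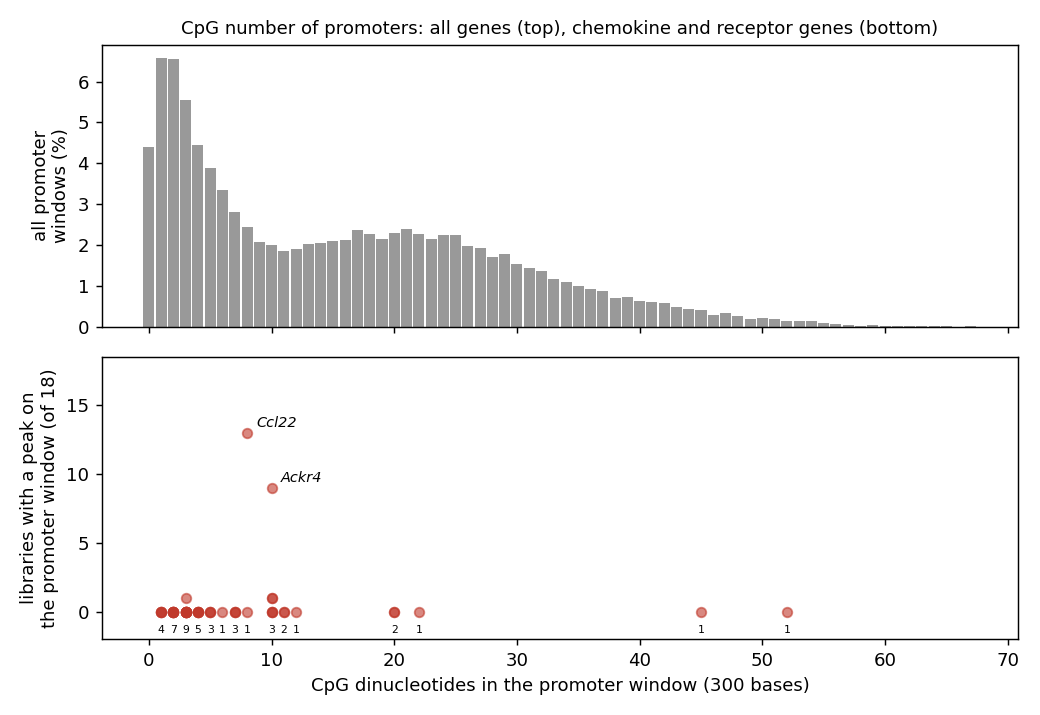
CpG dinucleotides in 300-base promoter windows. The top panel gives the percent of all 20084 windows at each CpG number, and the bottom panel places each of the members' 49 windows by its CpG number and the number of libraries (of 18) with a peak on it, with small digits counting the windows at 0 libraries. Most member windows sit at the left with no peak, and Ccl22 and Ackr4 stand above the rest.

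Peaks lay at these genes less often than at genes in general. A gene's window here is its span plus 2000 bases on each side. In each of the 18 libraries the share of members with a peak in the window was below that of all genes, between 21.4% and 44.6% of members against 41.3% to 58.3% of genes. No library had a peak at 21 members (37.5%, against 21.5% of all genes), 9 members had a peak in 15 or more libraries (16.1% against 34.2%), and 3 had one in all 18 (5.36% against 20.2%). The median member had a peak in 4 libraries and the median gene in 9. The members are also short, with a median length of 5240 bases against 17578.5 over all genes. Per base the order turned, since 2.98% of the bases of member windows lay under peaks on average, against 2.33% for all gene windows, and the members were higher in 16 of 18 libraries.

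The libraries differed in how many peaks were called, from 34255 (6 h replicate 3) to 60653 (72 h replicate 2), and sham replicate 2 had 60130. The deposited score that ranks peaks began at 50 in every list, and its scale is not given in the sources used here. Cardiomyocyte, leukocyte and stromal marker genes cannot check a tissue label through methylation peaks. Their windows were counted all the same, as the mean number of genes with a peak per library in sham and at 72 h. It was 3.33 and 5.33 of 8 cardiomyocyte genes, 1 and 0 of 6 neutrophil genes, 2 and 3 of 6 monocyte and macrophage genes, and 2 and 2 of 5 lymphocyte genes. It was 1.67 and 2 of 3 fibroblast genes and 3 and 3 of 3 endothelial genes. Over single libraries the neutrophil number ranged from 0 to 2 in sham and was 0 in each 72 h library, and the monocyte and macrophage number ranged from 1 to 3 in sham and was 3 in each 72 h library. Of the marker genes, Csf1r alone had a peak in all 3 of the 72 h libraries and in none of the 3 sham libraries. Of the 6 monocyte and macrophage genes, 2 had no peak in any library. The part of the marker genes in the results below was not tested.

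The number of members with a peak did not separate the groups. It was 14, 25 and 12 in the sham libraries, with sham replicate 2 the highest of all 18. The mean was 17 ± 7 (SD, n = 3) in sham, then 18 ± 4.58, 17.7 ± 2.52, 16 ± 2, 18 ± 2.65 and 19 ± 1.73 in order of time from 10 min to 72 h. The range of every time overlapped that of sham. Without sham replicate 2 the difference between 72 h and sham was 6 genes instead of 2. Ligands with a peak numbered 7.67 ± 4.73 in sham and 10 ± 1 at 72 h, and receptors, atypical ones included, numbered 9.33 ± 2.31 and 9 ± 2.

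**Figure D2:**
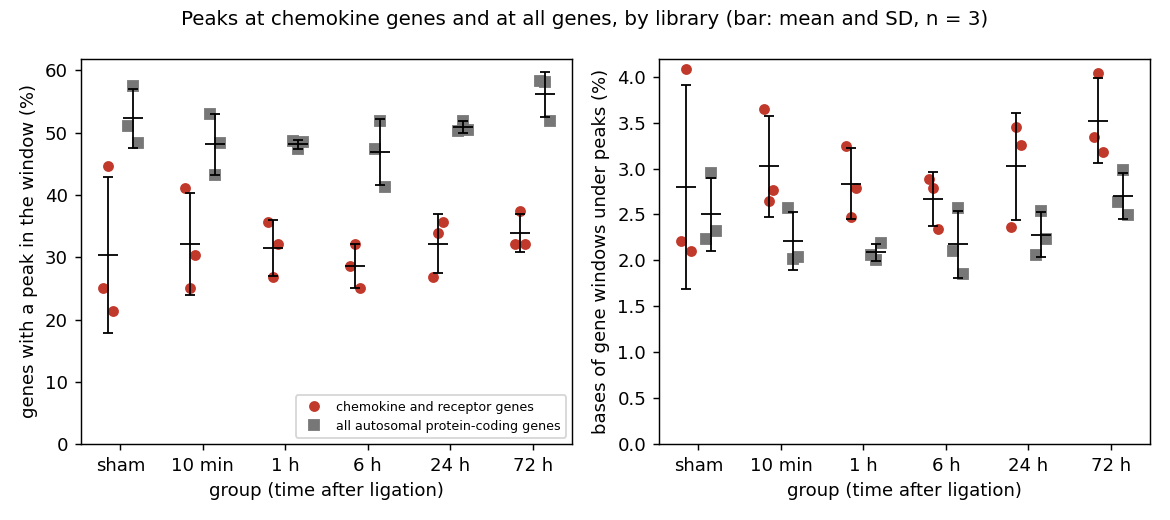
Percent of genes with a peak in the window (left) and percent of window bases under peaks (right), by group. Red circles are the chemokine and receptor genes and grey squares all autosomal protein-coding genes, 1 point for each library, with the mean and SD of 3 libraries as bars; on the left the circles lie between 21.4% and 44.6% and the squares between 41.3% and 58.3%.

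Among the monocyte-attracting CC ligands of chromosome 11, methylation peaks were nearly absent. Ccl7, Ccl8 and Ccl12 had no peak in any library. Ccl2 itself, the main monocyte attractant, had peaks in 4 libraries, with 690 and 806 bases in 10 min replicates 2 and 3, 762 in 1 h replicate 1 and 658 in 24 h replicate 3. No sham, 6 h or 72 h library had one. These peaks lay in a region outside the gene and 1123 bases from it, chr11:82033540-82034454. The receptor for Ccl2, Ccr2, was also without a peak in its window in all 18 libraries. Outside that window, 4705 bases from the gene, the region chr9:124096320-124097213 was in 10 libraries. Sham had it in 3 of 3, 10 min and 1 h in 2 of 3 each, and 6 h in 1 of 3. At 24 h it was in 0 of 3 and at 72 h in 2 of 3. Of all autosomal regions, 0.524% likewise had 3 of 3 in sham and 0 of 3 at 24 h.

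Of the remaining 7 CC ligands of chromosome 11, 3 had no peak in any library and 4 had one in 3 to 6 libraries. Ccl6, Ccl9 and the eosinophil attractant Ccl11 had none. Ccl5, which attracts T cells and monocytes, had 1217 bases in 10 min replicate 3, 566 in 1 h replicate 3, 834 in 6 h replicate 3 and 600 in 24 h replicate 3, and 0 in the other 14 libraries. Ccl3 and Ccl4, the macrophage inflammatory proteins, overlap in the gene table and share the region chr11:83648172-83649041, found in 3 libraries. Ccl4 had a further peak in sham replicate 3 of 560 bases, outside the window of Ccl3. Neither had a peak from 6 h on.

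Ccl1, a ligand of Ccr8, was the exception among these CC ligands. It had no bases under peaks in the 9 libraries of sham, 10 min and 1 h, and 846, 826 and 0 at 6 h. The 24 h libraries had 0, 0 and 801 bases, and the 72 h libraries had 953, 993 and 886. All 3 libraries at 72 h thus had a peak and no sham library did, while 6 h and 24 h were split. The peaks formed 1 region, chr11:82176576-82177641, over the end of the gene, with a mean score of 62.5 ± 10.7 (SD, n = 6 peaks). At 72 h against sham the adjusted p was 0.328 (limma, Benjamini-Hochberg over 14330 genes), and the exact two-sided permutation p was 0.1, the smallest that 3 against 3 libraries allow.

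The CC ligands on other chromosomes included genes with steadier peaks. Ccl25, which guides T cells in thymus and gut by way of Ccr9, had between 1110 and 3595 bases in all 18 libraries. Its most frequent region, chr8:4345272-4346897 inside the gene, was present in 18 libraries with a mean score of 116.9 ± 37.3. Ccl25 has promoter windows at chr8:4324960-4325259 and at chr8:4349338-4349637. The region lies between them, so it is inside the gene span but upstream of the later start. Ccl22 had a peak in 16 libraries, with 899, 1583 and 1028 bases in sham and between 793 and 1223 in every library at 10 min and 6 h. The 1 h libraries had 1088, 1034 and 0, the 24 h libraries 0, 1082 and 1033, and the 72 h libraries 731, 875 and 525. The 3 values at 72 h are below the 3 sham values. Its log2 difference at 72 h was -0.64 (SE 0.93), with an adjusted p of 0.985 by limma and an exact permutation p of 0.1. The region chr8:94744540-94745774, in 15 libraries, lies over the gene's start and includes CpGs of the promoter printed above.

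Ccl27b and Ccl21b sit in a part of chromosome 4 with near-identical copies of Ccl27 and Ccl21 genes, so reads there are hard to place and their peaks are uncertain. Ccl27b, a skin-homing ligand of Ccr10, had 0, 958 and 0 bases in sham and 1074, 1745 and 0 at 10 min. The 1 h libraries had 695, 1012 and 1144, and the 6 h libraries had up to 948 with 1 at 0. The 24 h libraries had 1374, 1141 and 1270, and the 72 h libraries 958, 1037 and 614. Thus 13 of 15 MI libraries and 1 of 3 sham libraries, sham replicate 2, had a peak. For all MI libraries against sham the log2 difference was 1.94 (SE 0.89), the adjusted p was 0.955 by limma, and the exact permutation p was 0.0699. Ccl21b, a ligand of Ccr7, had peaks in 11 libraries, with 3394, 2659 and 1195 bases at 72 h and 0, 1008 and 0 in sham. For 72 h against sham the adjusted p was 0.858 by limma. The gene table lists Ccl21b with a span of 83706 bases, against 1132 for Ccl21a. Its peaks lay in several regions scattered along that span.

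The rest of this group was sparse. Ccl26 had a peak in 13 libraries, in a region found outside the gene in 12, and Ccl28 had one in 8 libraries, none of them at 72 h. Ccl19 had a peak in 1 library (1 h replicate 1) and Ccl21a in 1 (sham replicate 2). Ccl17, Ccl20, Ccl21d, Ccl24 and Ccl27a had none.

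**Figure D3:**
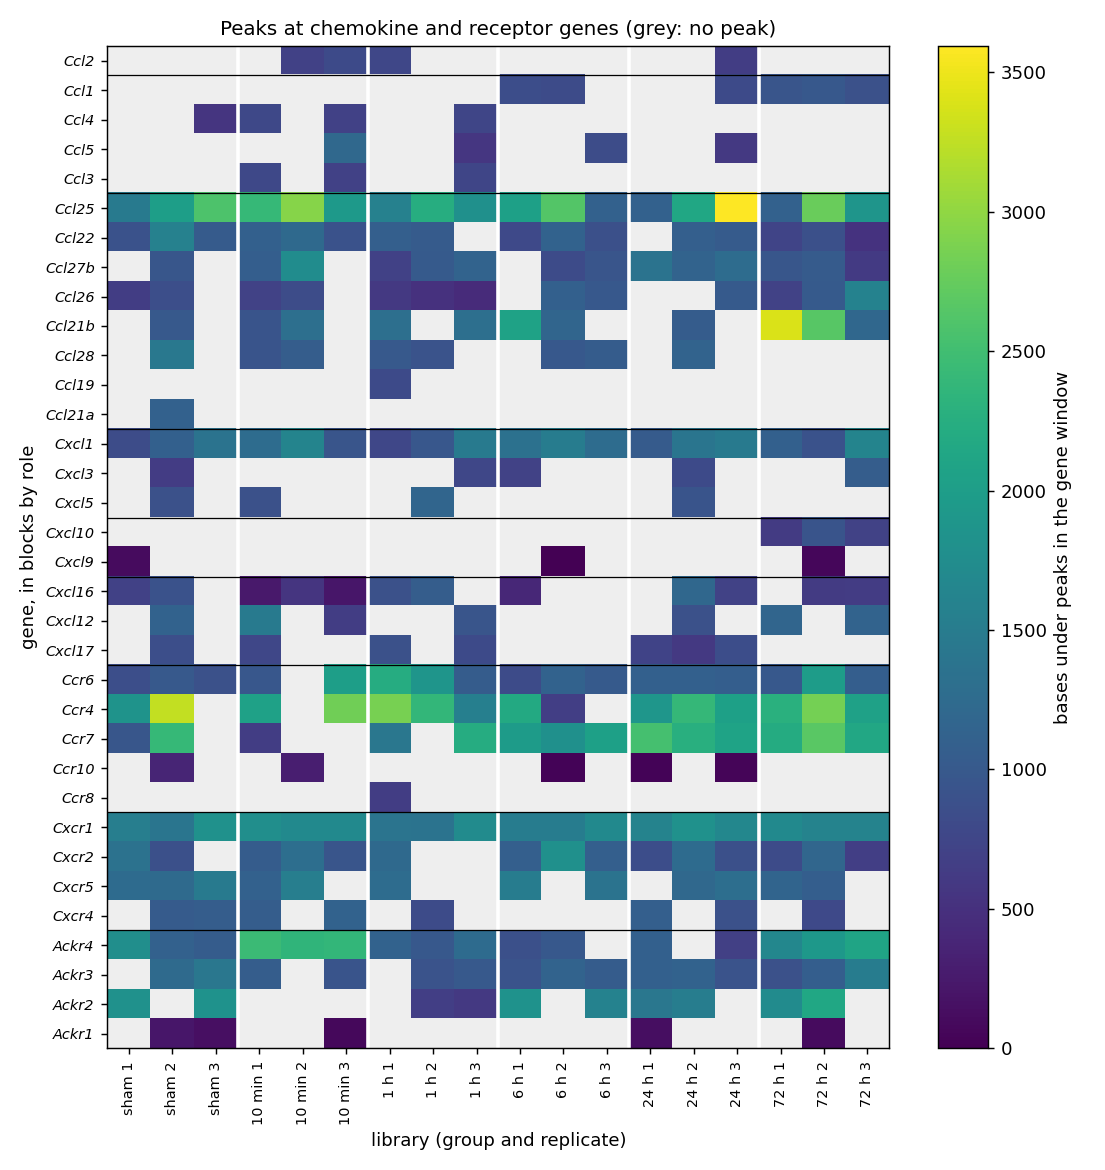
Bases under peaks in the window of members with a peak in at least 1 library, for the 18 libraries in order of time. Rows are grouped by role, grey cells have no peak, and Cxcl10 and Ccl1 are filled in all 3 libraries at 72 h and in none of sham.

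Among the CXC ligands that attract neutrophils, Cxcl1 stood alone. It had a peak in all 18 libraries with 768 to 1624 bases, in the region chr5:90892115-90894207 over the end of the gene (mean score 96.8 ± 29.7). Its sham values of 831, 1105 and 1376 bases lay inside the range of the MI values, and the log2 difference for all MI libraries was 0.16 (SE 0.22; adjusted p 0.956 by limma). The neighbouring Cxcl2, which acts on the same receptor, and Cxcl15 had no peak in the window in any library. Outside the window of Cxcl2, 3592 bases from the gene, the region chr5:90909530-90911205 was in 17 libraries. Cxcl5 had 893 bases in sham replicate 2 and peaks in 3 MI libraries, and Cxcl3 had peaks in 5 libraries, at most 1 in a group.

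Cxcl10, the interferon-induced ligand of Cxcr3, had peaks at 1 time alone. It had 621, 937 and 703 bases under peaks at 72 h and 0 in the other 15 libraries. The 3 peaks formed 1 region of 937 bases, chr5:92347750-92348686, which begins 203 bases inside the gene from its start and ends within it. The gene Art3, which overlaps Cxcl10, also covers this region. The peaks were weak, with scores of 56.5, 52.7 and 65.1 on a scale that begins at 50. Such a pattern, 3 of 3 libraries at 72 h and 0 of the other 15, was found at 11 of 20556 genes (0.0535%). The corresponding number was 3 genes for sham (0.0146%), 1 for 10 min (0.00486%), 2 for 24 h (0.00973%) and 0 for both 1 h and 6 h (0%), with no member among them. Cxcl9, its neighbour and fellow ligand of Cxcr3, had a peak clipped by the window edge in 3 libraries, of 108, 12 and 70 bases in sham replicate 1, 6 h replicate 2 and 72 h replicate 2.

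Of 56 members, Cxcl10 and Ccl1 were thus the 2 gained at 72 h, in the sense of a peak in 3 of 3 libraries and in 0 of 3 sham libraries, against 0.647% of all genes. Among the marker genes, the same rule was met by Csf1r, 1 of 6 monocyte and macrophage genes, and by 0 genes of the other marker lists. No member was gained at the other times, where 0.199%, 0.141%, 0.156% and 0.234% of all genes were, in order of time. None was lost, the opposite pattern, against 0.54%, 0.603%, 0.701%, 0.506% and 0.214% of all genes in order of time. The 72 h libraries also had the most peaks on average, 56084 ± 6528 against 51287 ± 8068 in sham (SD, n = 3), and when every list was shortened to its 34255 highest-scoring peaks Cxcl10 and Ccl1 were no longer gained. Ccl27b and Ccr7 were in their place. With a score of at least 100 no member was gained, and with windows of 5000 bases on each side Ccl1 was and Cxcl10 was not. Without sham replicate 2 the gained members were 4, Ccl21b and Ccl27b beside Cxcl10 and Ccl1. That setting asks for no peak in fewer sham libraries. The shares of all genes gained under these alternatives are not given here, so their counts cannot be set against a background.

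By the limma test on bases under peaks, 32 members had a peak in 3 or more libraries and were tested among 14330 genes. Cxcl10 at 72 h was the 1 member called higher at an adjusted p of 0.05 (adjusted p = 4.73e-07), beside 0.0977% of all genes. The members called in either direction at the 4 earlier times, and for all MI libraries together, numbered 0. The shares of all genes called higher there were 0.014%, 0%, 0%, 0.0279% and 0.014%, and those called lower 0.0419%, 0.0488%, 0.0488%, 0.0279% and 0.0488%. The call for Cxcl10 rests on a spread estimated from 15 libraries at 0 and the gene passed the filter only through the 72 h libraries, so it is not relied on. In simulated data, in which some genes were given a difference, genes of this kind that were given none were also called. The exact permutation p was 0.1, the smallest that 3 against 3 libraries allow, so that test could call no gene at any single time. At an unadjusted limma p under 0.05 there were 1, 1, 2, 1 and 3 of 32 members in order of time and 3 for all MI libraries, against 4.25% to 5.60% of all genes.

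**Figure D4:**
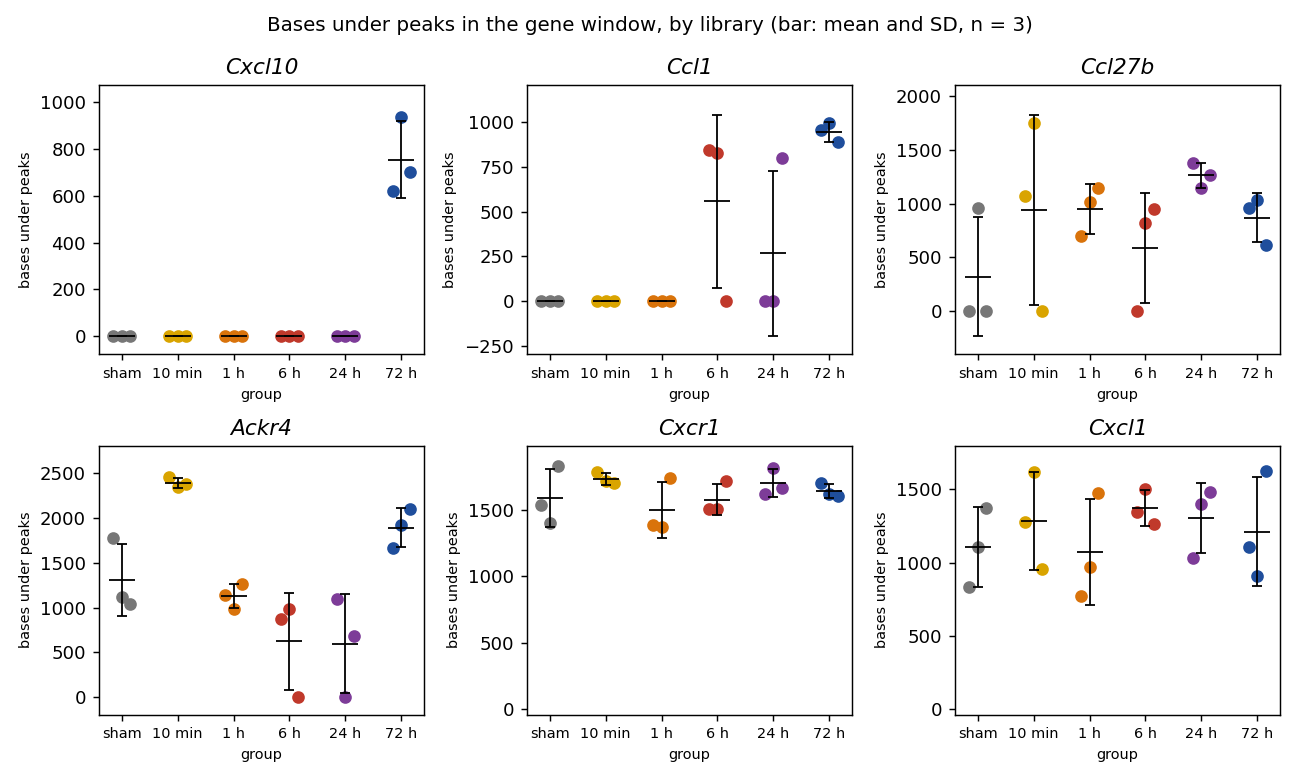
Bases under peaks by library for Cxcl10, Ccl1, Ccl27b, Ackr4, Cxcr1 and Cxcl1, with points for libraries and bars for the mean and SD of 3 libraries in each group. Cxcl10 has values above 0 only at 72 h (621, 937 and 703 bases), Ackr4 is high at 10 min and 72 h, and Cxcr1 and Cxcl1 are present in every library.

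Among the other CXC ligands, Cxcl12, the ligand of Cxcr4 that holds progenitor cells in bone marrow, had peaks in 7 libraries. These were 1130 bases in sham replicate 2, 1463 and 658 at 10 min, 949 in a 1 h library, 885 in a 24 h library, and 1177 and 1150 in the 72 h group. No group had all 3 libraries and the groups overlapped. Cxcl16 had peaks in 12 libraries, split between 2 regions. The region chr11:70461428-70462920 was present in 3 of 3 libraries at 10 min and 0 of 3 in sham, while chr11:70459916-70461279 was in 0 of 3 at 10 min and 2 of 3 in sham. Cxcl17 had peaks in 7 libraries, including 3 of 3 at 24 h and 1 of 3 in sham. Cxcl13 and Cxcl14 had none.

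The CXC receptors for neutrophil ligands held frequent peaks. Cxcr1 had one in all 18 libraries, with 1369 to 1825 bases, in the region chr1:74190960-74192979 over the end of the gene. Its mean score of 164.8 ± 44.3 (SD, n = 18) was the highest among the regions most frequent at each member. The log2 difference for all MI libraries was 0.04 (SE 0.11; adjusted p 0.981 by limma). Cxcr2, its neighbour, had peaks in 15 libraries, of 1355, 882 and 0 bases in sham and 821, 1180 and 666 at 72 h, and every time overlapped the sham range. Cxcr5, the receptor of B cell follicles, had a peak in 3 of 3 sham libraries and 9 of 15 MI libraries. Cxcr4 had a peak in 8 libraries, 1026 and 1058 bases in sham replicates 2 and 3 and 6 of 15 MI libraries, none at 6 h. Cxcr6 had none.

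The CC receptors ranged from genes with a peak in most libraries to genes without any. Ccr6, the receptor of Ccl20, had a peak in 17 libraries (10 min replicate 2 lacked it), most often in chr17:8255994-8257363, inside the gene near its end. Ccr4, the receptor of Ccl17 and Ccl22, had peaks in 15 libraries, with 664 to 3261 bases where present. Ccr7, which leads dendritic cells and T cells to lymph nodes, had peaks in 14, with 955, 2413 and 0 bases in sham. It had 652, 0 and 0 at 10 min and 1432, 0 and 2227 at 1 h, then between 1798 and 2680 bases in each of the 9 later libraries. Its log2 difference at 72 h was 1.73 (SE 1.04; adjusted p 0.934 by limma). A smaller region at Ccr7, chr11:99150968-99151879, was present in 3 of 3 libraries at 24 h, 0 of 3 in sham, and 1 of 3 at 10 min and at 72 h.

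Ccr10 had 5 peaks at the edge of its window, of 39 to 376 bases. Ccr8 had 1 peak, in 1 h replicate 1. Ccr1, Ccr1l1, Ccr2, Ccr3 and Ccr9 had none.

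All 4 atypical receptors had peaks, with a median of 12.5 libraries, against 3 among ligands and 4.5 among conventional receptors. The median gene lengths stood in the same order, at 12233, 3659.5 and 7238 bases, and the part of gene length in this was not tested. Ackr4 had 1772, 1118 and 1043 bases in sham, 2452, 2346 and 2377 at 10 min and 1135, 986 and 1258 at 1 h. The 6 h libraries had 877, 989 and 0, the 24 h libraries 1099, 0 and 687, and the 72 h libraries 1659, 1918 and 2102. The 10 min values lay above all sham values, the 6 h values lay below them, and the other times overlapped the sham range. The log2 difference was 0.76 (SE 0.53) at 10 min and -0.998 (SE 0.53) for the 6 h libraries, with adjusted p values of 0.958 and 0.852 by limma and exact permutation p values of 0.1 and 0.1. The peaks fell in 4 regions. The region over the start, chr9:104125792-104127023, which takes in the promoter printed above, was in 0 of 3 sham, 3 of 3 10 min, 0 of 3 1 h, and 2 of 3 libraries at each later time. The region near the end of the gene, chr9:104098413-104099887, was in 2 of 3 sham libraries, in 3 of 3 at 10 min, at 1 h and at 72 h, and in none of the 6 h and 24 h libraries. A region between them, chr9:104115031-104116092, was in 1 of 3 sham libraries, 2 of 3 at 10 min, and 1 of 3 at 24 h and at 72 h. The last, chr9:104096900-104097636, was in sham replicate 1 alone, and the 1772 bases of that library lay in these latter 2 regions.

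Ackr3, which scavenges Cxcl12, had a peak in 15 libraries with 897 to 1513 bases where present, and it had one in all 9 libraries from 6 h on and in 2 of 3 in sham. Ackr2, a scavenger of inflammatory CC ligands, had 1812, 0 and 1831 bases in sham, 0 in all 3 libraries at 10 min, and peaks in 2 of 3 libraries at each later time. Ackr1, the chemokine receptor of red blood cells and venules, had 213 and 152 bases in sham replicates 2 and 3 and 73, 133 and 105 in 1 library each of the 10 min, 24 h and 72 h groups. It was the 1 member with an exact permutation p under 0.05 for all MI libraries against sham (p = 0.0245, against 4.80% of all genes tested; adjusted p 0.955 by limma). These bases are the edge of a region of 1148 bases, chr1:173335291-173336438, that lies mostly outside the window.

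Taking regions instead of genes, peaks of all libraries that overlapped by at least 1 base were merged, and 65 distinct regions touched a member's window. Of these, 14 were in 1 library, 6 in 15 or more, and 3 in all 18. Where the strand was known (48 regions), 31 lay inside the gene, 7 over its end, 3 downstream, 4 upstream and 3 over its start. The regions gained at 10 min lay at Cxcl16 and Ackr4 (2 regions, against 0.218% of all 148111 autosomal regions), at 24 h at Ccr7 (1 region, against 0.394%) and at 72 h at Cxcl10 and Ccl1 (2 regions, against 0.724%). At 1 h and at 6 h the number was 0, against 0.223% and 0.203%, and 0 regions at members were lost at any time, against 0.627%, 0.55%, 0.707%, 0.524% and 0.401% in order of time.

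The Ccl cluster of chromosome 11 spans 1.63 Mb (chr11:82033577-83666683) with 11 members and 25 other protein-coding genes. Its 121 regions included 6 found in 15 or more libraries, and 0 of these touched a member's window, since the members sit at both ends and the frequent regions between them. The percent of the cluster under peaks was 1.999 ± 0.531 (SD, n = 3) in sham, and 2.15 ± 0.164, 1.55 ± 0.0157, 1.77 ± 0.473, 1.91 ± 0.246 and 2.16 ± 0.406 from 10 min to 72 h. It was below that of all gene windows in 17 of 18 libraries. The 1 h libraries, between 1.54% and 1.57%, lay below all 3 sham libraries, which began at 1.60%. The share of all gene windows under peaks was likewise lower in the 1 h libraries than in every sham library, with means of 2.09% and 2.50%. At 72 h the difference from sham was 0.163 percentage points and ranged from -0.0376 to 0.464 when 1 library was left out, the lowest without sham replicate 3 and the highest without sham replicate 2. It was -0.205 when the lists were shortened to equal length by score.

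The Cxcl cluster of chromosome 5 spans 1.59 Mb (chr5:90757298-92350889) with 7 members and 19 other genes. Of its 128 regions, 5 touched a member's window, so the cluster values below describe mostly other sequence. In 15 or more libraries were 11 regions, and 1 of those, at Cxcl1, touched a member's window. Here 2.65 ± 0.486% lay under peaks in sham, then 2.36 ± 0.336%, 2.52 ± 0.275%, 2.41 ± 0.486%, 2.68 ± 0.261% and 3.07 ± 0.275% in order of time. It was above all gene windows in 17 of 18 libraries. The difference of 0.410 percentage points at 72 h, between 0.166 and 0.651 with 1 library left out, went with one over all gene windows, from 2.50% to 2.70%. The cluster's difference was 0.184 when the lists were shortened to equal length and 0.0907 with scores of 100 or more. Of its regions 4 were gained and 1 was lost at 72 h, against 0.724% and 0.401% of all autosomal regions. Only 1 of the gained regions, at Cxcl10, touched a member's window. Regions lost numbered 3 at 10 min and 2 at 6 h, against 0.627% and 0.707% of all autosomal regions. The Ccl cluster gained 1 and lost 1 at 72 h. It lost 1 at 10 min, 2 at 1 h and 1 at 24 h, against 0.627%, 0.55% and 0.524% of all autosomal regions.

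**Figure D5:**
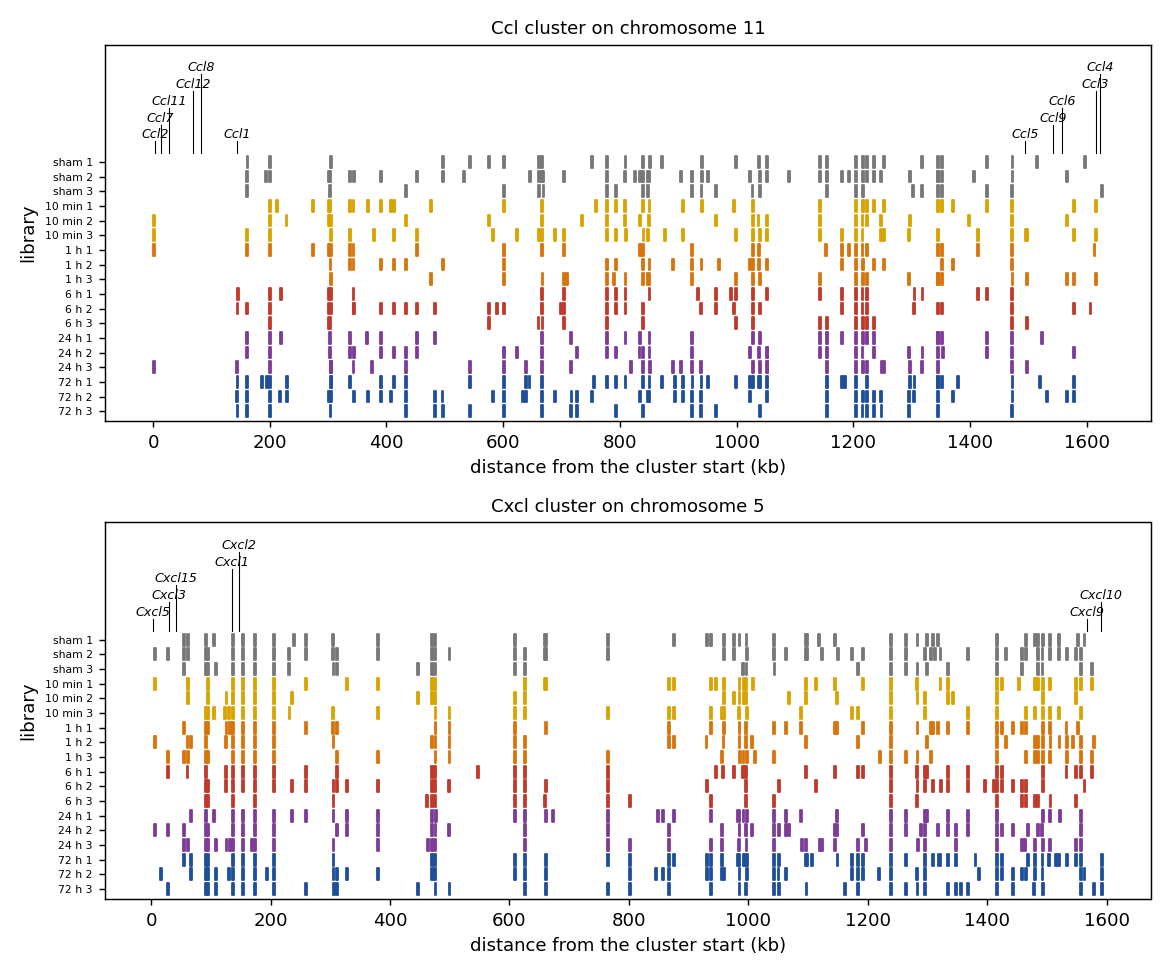
Peaks of each library (rows) along the Ccl and Cxcl clusters, in kilobases from the start of each cluster, with the member genes marked above. Frequent peaks line up as columns between the member genes, and at the right end of the Cxcl cluster the 3 libraries at 72 h have a peak at Cxcl10.

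Other genes of chemokine signalling were read from a list of 34 ligands, receptors, G proteins, kinases, arrestins and transcription factors, all found in the gene table. Of these, 3 had no peak in any library (8.82%), 13 had one in 15 or more (38.2%) and 8 had one in all 18 (23.5%). The 18-library genes were Arrb1, Cx3cr1, Dock2, Elmo1, Ikbkb, Pik3cg, Pik3r5 and Prex1. Plcb2, a phospholipase under the receptors, was gained at 1 h and Nfkb1, which encodes an NF-kappaB subunit, was lost at 1 h, both 1 gene of 34 against the 0.141% and 0.603% given above. Gains and losses at the other times numbered 0, and limma called 0 of the 24 genes it tested in any comparison.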

How the data were processed

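Peak lists of 18 MeDIP-seq libraries were used, 1 for each mouse and called separately for each library. Per the submitters' processing notes the genome was mm10 and the tools included Bowtie2 and MACS2; options, versions and whether an input was used are not given in the sources used here. Per the labels' protocols, sheared genomic DNA was immunoprecipitated and sequenced in pairs. The deposited lists give position and a score, whose scale is not stated; the score was used only to rank or filter peaks and to describe regions. Read counts were not used here, so depth is unknown and no counting interval is given.

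From these, bases under peaks were summed over each gene span plus 2000 bases on each side (RefSeq, GRCm38.p6; 105 genes without a position on an assembled chromosome were left out). Groups were compared by presence of a peak (gained: 3 of 3 against 0 of 3; lost: the opposite) and by limma 3.58.1 (R 4.3.3, trend and robust) on log2(bases per 1000 + 10), over 14330 genes with a peak in at least 3 libraries, with Benjamini-Hochberg adjustment at 0.05. Log2 differences are on that scale, which understates differences at low values. Exact two-sided permutation tests were an alternative; they cannot go below 0.1 for 3 against 3 libraries or 0.00123 for 15 against 3. The fit was tested on simulated data and miscalled some genes absent from nearly all libraries. Mice are the replicates.

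Genes were named in full when they had a peak in 15 or more libraries, were gained or lost, had 1 of the 5 smallest limma p values for all MI libraries, or belonged to the ligands and receptors of infarct inflammation (Ccl2, Ccl5, Ccl7, Ccl12, Ccr1, Ccr2, Cxcl1, Cxcl2, Cxcl5, Cxcl10, Cxcl12, Cxcr2, Cxcr4, Ackr1, Ackr3); others were named after their values were seen. The counts include 1 member that is not reported here. The members and all lists, including those of other signalling and cell type marker genes, were chosen with earlier results of these data known. Replicate numbers did not pair the libraries. Alternatives varied the peak number, score, window, pseudocount, filter, replicate block and libraries included.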

Additional observations from a re-analysis of the deposited data

Results flagged for a closer look

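The bases under peaks at Ackr4 averaged 2392 at 10 min and 595 at 24 h, a difference of 1796, around a sham mean of 1311. It was noted because all 3 libraries at 10 min lay above the sham mean and all 3 at 24 h lay below it. The 24 h values overlapped those of sham, neither time passed the limma test against sham, and the difference between these times was not tested.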

How the results depend on the processing

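Depth is unknown, weak peaks differ most between lists, and 3 libraries a group limit every comparison. Differences in members with a peak and in cluster coverage were smaller than the SD of the sham libraries, and all but that of the Cxcl cluster changed sign under at least 1 alternative. With lists shortened to equal length by score, members gained were 1 at 1 h, 1 at 6 h and 2 at 24 h, and 1 was lost at 1 h. With a score of 100 or more 0 were gained at 72 h. With 5000 bases on each side 1 was gained at 72 h, and 1 (Ccr2) was lost at 24 h. For these alternatives, and for those with 1 library left out, the shares of all genes gained or lost are not given here. Genes called by limma over the genome (8, 7, 7, 8 and 16 in order of time, 9 for all MI libraries) became 2 at 1 h, 2 at 6 h, 2 at 24 h, 9 at 72 h and 1 for all MI libraries with equal peak numbers. With a score of 100 or more they were 13, 13, 16, 13 and 26 in order of time and 17 for all MI libraries. They were 3 at 10 min and 4 at 1 h for the gene span alone, and 5, 4 and 4 at 10 min, 1 h and 6 h and 5 for all MI libraries with 5000 bases on each side. The exact test called 0 in each comparison. For each time against sham this was fixed in advance, since its p cannot go below 0.1 there. Replicate numbers showed no pairing (mean correlation of deviations 0.00611 for same-numbered and -0.00305 for other pairs, with 8 of 18 libraries most like one of their own number); the replicate block gave 5 genes for all MI libraries and changed no call of a member. With 1 library left out, genes called ranged from 8 to 13 at 10 min, 6 to 12 at 1 h, 6 to 12 at 6 h, 8 to 13 at 24 h, 16 to 23 at 72 h and 4 to 12 for all MI libraries. Members gained ranged from 0 to 1 at 10 min, 1 h and 6 h, 0 to 2 at 24 h and 2 to 4 at 72 h, and members lost from 0 to 1 at 10 min and 1 h, 0 to 2 at 6 h and 0 to 0 at 24 h and 72 h. The difference in members with a peak ranged from -1.5 to 5 (10 min), -1.83 to 4.67 (1 h), -3.5 to 3 (6 h), -1.5 to 5 (24 h) and -0.5 to 6 (72 h). Directions reversed for Cxcl10 over all MI libraries with 5000 bases on each side (log2 difference -0.53, adjusted p 0.961 by limma) and for Cxcl9 without sham replicate 1 (0.058, adjusted p 0.95 by limma, the range over left-out libraries being -0.44 to 0.058). The cause was not tested.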
